A study of Homo sapiens with 4 samples.

Results

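The tight junction genes described here are CLDN1, CLDN3, CLDN4, CLDN7, OCLN, MARVELD2, TJP1, TJP3 and F11R, 9 of the 26485 gene names in the deposited tables. They were chosen by name as claudins other than CLDN12, occludin family members, a junctional adhesion molecule and scaffold proteins (a rule on names, not on measured values). RNA was sequenced from SW1736 and 8505C, established human cell lines of anaplastic thyroid cancer, in a drug-sensitive form (wt) and a paclitaxel-resistant form (PTX). The resistant forms were obtained over 6 months under paclitaxel, starting at 1 nM and ending at 1.5 µM, a dose they still received afterwards, so that the selected state and the presence of the drug cannot be told apart. Each of the 4 conditions was 1 library (SW1736 wt, SW1736-PTX, 8505C wt and 8505C-PTX), and no difference between conditions could be set against replicate spread.

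Tight junctions join neighbouring epithelial cells near their apical border and limit passage between them. Claudins form the strands and set which ions and solutes pass. Occludin and tricellulin (MARVELD2) are 4-pass membrane proteins of the same strands, F11R (JAM-A) is an immunoglobulin-like adhesion protein beside them, and TJP1 (ZO-1) and TJP3 (ZO-3) tie their tails to the cytoskeleton. Normal thyroid follicles are closed by such junctions, while anaplastic thyroid cancer is known for loss of epithelial features.

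Estimated totals were 43.5 M to 57.9 M reads per library, and 8485 to 10379 gene names per library were listed at 0, with more in the wt library of each line (10379 against 8485 in SW1736, and 10241 against 8869 in 8505C). Of 13 housekeeping genes, 0 were at 0 in any library. The paper, however, lists SLC25A6 and CD99 at 0 FPKM in both wt libraries and among the top genes up in both resistant ones. Whether a gene listed at 0 in a wt library was without reads was not tested. Levels are FPKM, fragments per kilobase of transcript scaled to the mapped reads of the library. Sets of 4 values follow the order SW1736 wt, SW1736-PTX, 8505C wt, 8505C-PTX. Comparisons between genes are approximate, since the ratio of FPKM to read coverage differed between members. Relative to most genes it was 1.09 to 1.10 times as high for TJP1 and 1.17 to 1.31 for CLDN7. For OCLN it was 2.83 to 2.88 and for TJP3 3.15. The SW1736-PTX library stood apart from its own wt library. Over 14692 genes its log2 FPKM profile correlated with SW1736 wt at r = 0.767, with 8505C wt at r = 0.873 and with 8505C-PTX at r = 0.933 (Pearson correlation across genes, which are not independent replicates). PAX8, a thyroid transcription factor, had 38.2, 0.206, 0.123 and 0.146 FPKM over the 4 libraries. NKX2-1, another, had 0, 36.3, 30.5 and 39.0. KRT19, a simple-epithelium keratin, had 266, 0.535, 0 and 0, so that SW1736 wt was the odd library in all 3 genes. The origin of the SW1736-PTX library was not tested. The members and the lists of junction genes and regulators are therefore also given for SW1736-PTX against 8505C wt, and the 8505C pair stands without it.

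In both lines, CLDN4 was higher in the resistant library than in its wt library, by 11.8-fold in SW1736 and 9.07-fold in 8505C. TJP3, listed at 0 in both wt libraries, was also higher, by 14.3-fold and 7.99-fold over a floor of 3 reads. MARVELD2 was read in both wt libraries and listed at 0 in both resistant ones. F11R was 3.65-fold higher in 8505C-PTX than in 8505C wt and 1.09-fold higher in the SW1736 pair. CLDN1 and TJP1, the most abundant members, differed by less than 1.5-fold in either pair. CLDN3 and OCLN stayed below 0.5 FPKM in every library. Each of these statements compares single libraries, and in bulk RNA fewer cells of a type and less RNA per cell cannot be told apart.

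**Figure D1:**
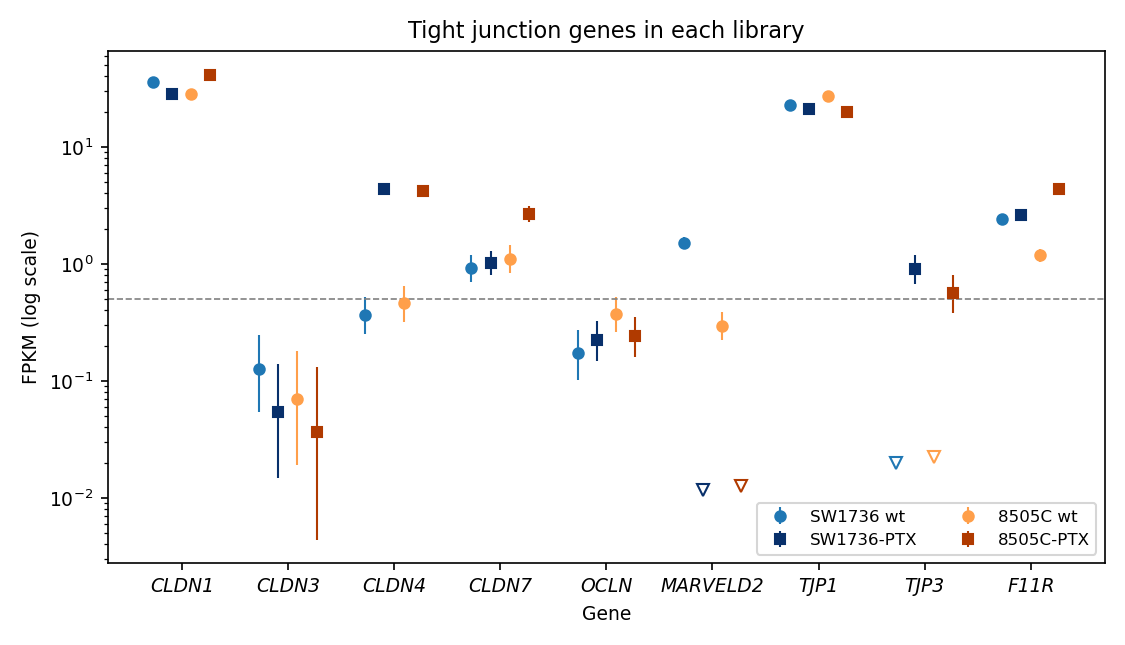
FPKM of the 9 tight junction genes in each of the 4 libraries, on a log axis, with 1 point per library. Vertical bars are 95% counting intervals, and open points mark genes listed at 0, drawn at the level of 3 reads. CLDN1 and TJP1 lie between 19.9 and 41.0 FPKM in all libraries, CLDN4 separates wt (0.368 and 0.459) from PTX (4.33 and 4.16), and MARVELD2 and TJP3 are at 0 in opposite pairs of libraries.

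The order of levels was the same at the top and differed below. CLDN1 came first and TJP1 second in every library, and together they made up 91.4%, 84.4%, 94.1% and 83.5% of the summed FPKM of the 9 genes in SW1736 wt, SW1736-PTX, 8505C wt and 8505C-PTX. In 8505C wt the counting intervals of the top pair overlapped (CLDN1 27.4 to 29.2 FPKM, TJP1 26.5 to 27.7). Read coverage, brought to the FPKM scale by the ratio held by most genes, put them at 28.3 and 24.6 there. The summed FPKM was 63.9, 58.6, 58.8 and 72.9. F11R followed in all libraries but SW1736-PTX, where CLDN4 took that place. MARVELD2 followed F11R in SW1736 wt and last in both resistant libraries, and TJP3 was last in both wt libraries.

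For counts over many genes, a gene was compared where it exceeded 0.5 FPKM in 1 or both of the libraries set against each other, and called where the log2 ratio of FPKM + 0.1 lay beyond 1.5 in either direction. The added 0.1 understates the ratio of low genes. In the SW1736 pair 15.7% of 14202 genes were called up and 10.2% down. There, 7 of the 9 members were compared, 2 were called up and 1 down, with a median log2 ratio of 0.12 against 0.01 over all genes compared. For 8505C, 15.0% of 13794 genes were called up and 5.89% down. There, 6 members were compared, 3 were called up and 0 down, with a median of 1.49 against 0.11. This median of the members depended on the filter. It was 0.53 without a filter, 0.87 with both libraries above 0.5 FPKM, 0.85 on TPM and 0.72 with 1 FPKM added. Other alternatives gave 1.22 to 1.56. Against 8505C wt, where 15.1% of 13824 genes were called up and 5.23% down, the SW1736-PTX library had 6 members compared, 2 up and 0 down, with a median of 0.54 against 0.10. These pairs share libraries and are not independent of each other. Their shares over all genes are the ones to set beside each later count of genes called in the same pair. A gene above 0.5 FPKM in 1 library of a pair only had to differ in order to be counted, which was so for CLDN4 and TJP3 in both lines and for MARVELD2 in SW1736. Where both libraries had to exceed 0.5 FPKM, 0 members were called in the SW1736 pair and F11R was the 1 called up in the 8505C pair.

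**Figure D2:**
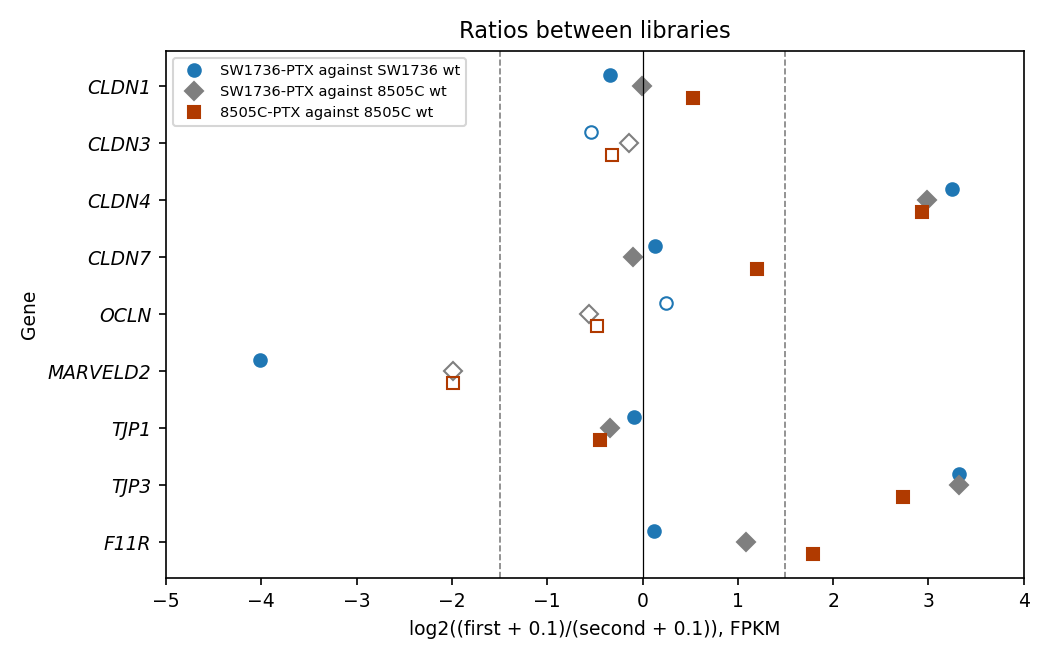
Log2 ratio of FPKM + 0.1 for each of the 9 genes in 3 pairs of libraries (circles SW1736-PTX against SW1736 wt, diamonds SW1736-PTX against 8505C wt, squares 8505C-PTX against 8505C wt). Open symbols are genes at or below 0.5 FPKM in both libraries of the pair, and dashed lines mark 1.5 in either direction. CLDN4 and TJP3 lie beyond the right line in all 3 pairs, MARVELD2 lies left in all 3 but was compared in 1, and F11R is beyond the line in the 8505C pair alone.

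CLDN4, a barrier-forming claudin that is also a receptor for Clostridium perfringens enterotoxin, lies on chromosome 7 (GRCh38, 73830863 to 73832693, plus strand) as a single-exon gene. The wt libraries of SW1736 and 8505C read it at 0.368 and 0.459 FPKM and the resistant ones at 4.33 and 4.16, from about 31 and 34 reads against 425 and 378. Both resistant libraries were high and both wt libraries low, with no overlap of their counting intervals. The log2 ratio was 3.24 in the SW1736 pair (11.8-fold, 95% counting interval 8.04 to 17.3) and 2.93 in the 8505C pair (9.07-fold, 6.35 to 13.2). With 8505C wt as the control, SW1736-PTX was 9.44-fold higher (6.62 to 13.8). The resistant libraries differed from each other by a log2 ratio of -0.06, with a fold interval of 0.835 to 1.11. These intervals cover counting error only, from reads estimated for each gene, and leave out the variation between cultures.

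Its close relative CLDN3, a neighbour on the same chromosome (73768997 to 73770270, minus strand, 1 exon), bound by the same toxin, was at 0.125, 0.0542, 0.0707 and 0.0363 FPKM over the 4 libraries. These values rest on about 8, 4, 4 and 2 reads. CLDN3 was thus barely read in any library, including the resistant ones where CLDN4 was high, and a difference was not detectable at this depth.

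CLDN7, a claudin that also lies along the basolateral membrane, had levels of 0.926, 1.03, 1.11 and 2.67 FPKM over the 4 libraries. The 8505C-PTX library was the high one and the other 3 lay close together. Within 8505C the log2 ratio was 1.20 (2.41-fold, interval 1.82 to 3.39), which did not reach the limit of 1.5, and within SW1736 it was 0.13 (0.764 to 1.55-fold). SW1736-PTX stood at -0.10 against 8505C wt. CLDN7 (chromosome 17, 7259903 to 7263193, minus strand, 4 exons) shares 307 exonic bases with ELP5 and a readthrough transcript, and the strand used in counting is not given in the sources used here. ELP5, which encodes a subunit of the Elongator complex, was at 29.7, 28.8, 39.9 and 26.7 FPKM. Its log2 ratio was -0.04 in the SW1736 pair and -0.58 in the 8505C pair. The part of the shared bases in the CLDN7 values was not tested.

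CLDN1 (chromosome 3, 190305701 to 190322446, minus strand, 4 exons), the claudin on which the skin's water barrier depends, was the most abundant member, at 35.7, 28.2, 28.3 and 41.0 FPKM over the 4 libraries. The directions were opposite in the lines. The log2 ratio was -0.34 in the SW1736 pair (0.788-fold, interval 0.760 to 0.818) and 0.53 in the 8505C pair (1.45-fold, 1.40 to 1.51). Set against 8505C wt, SW1736-PTX stood at -0.01. CLDN12, the claudin that the choice of members left out, was at 5.79, 14.7, 6.90 and 6.44 FPKM over the 4 libraries.

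MARVELD2 encodes tricellulin, which is concentrated where 3 cells meet and whose loss causes deafness. The wt libraries of SW1736 and 8505C read it at 1.51 and 0.297 FPKM, from about 326 and 57 reads, while both resistant libraries listed it at 0. A count of 3 reads would have been 0.0117 FPKM in SW1736-PTX and 0.0127 in 8505C-PTX. Set against these floors, the level was at least 129-fold lower in SW1736-PTX than in SW1736 wt and at least 23.5-fold lower in 8505C-PTX than in 8505C wt. SW1736-PTX was at least 25.4-fold lower than 8505C wt. The 8505C pair was not among the genes compared, since both its values were below 0.5 FPKM. The wt libraries also differed, with 8505C wt 5.09-fold below SW1736 wt (log2 ratio -2.02, in a comparison where 9.92% of 13457 genes were called down). The gene (chromosome 5, 69415112 to 69442063, plus strand, 7 exons) has a second entry in the tables, on an alternative contig, which was at 0 in every library.

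OCLN encodes occludin, the first transmembrane protein found in tight junctions. It was at 0.172, 0.223, 0.376 and 0.242 FPKM over the 4 libraries. The highest value was that of 8505C wt, and the counting intervals of the fold between PTX and wt included 1 in both lines (0.702 to 2.52 in SW1736 and 0.381 to 1.10 in 8505C), as did that of SW1736-PTX over 8505C wt (0.353 to 1.02). OCLN (chromosome 5, 69492292 to 69558104, plus strand, 9 exons) has a partial copy, OCLNP1, so its reads could be split and its level is uncertain. Its FPKM was also 2.83 to 2.88 times what its read coverage would give at the ratio of FPKM to coverage held by most genes of the library, which puts it at 0.0607, 0.0774, 0.131 and 0.0851 on the FPKM scale.

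F11R encodes JAM-A, an adhesion molecule that binds across the cell contact and takes part in setting up polarity. It was at 2.41, 2.62, 1.19 and 4.34 FPKM over the 4 libraries. Within 8505C the log2 ratio was 1.79 (3.65-fold, interval 3.17 to 4.22) and the gene was called up with both libraries above 0.5 FPKM. Within SW1736 it was 0.12, with a fold interval of 0.973 to 1.22 that includes no change. Since 8505C wt was the lowest of the 4 libraries, SW1736-PTX was 2.21-fold above it (log2 ratio 1.08, under the limit). F11R (chromosome 1, 160995211 to 161021343, minus strand, 10 exons) shares 1853 exonic bases with a readthrough gene.

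Of the scaffold proteins, TJP1 (chromosome 15, 29699367 to 29968799, minus strand, 28 exons), which binds claudins, occludin and actin, was at 22.6, 21.3, 27.1 and 19.9 FPKM over the 4 libraries. Both resistant libraries were slightly below their wt libraries, by log2 ratios of -0.09 (0.908 to 0.968-fold) and -0.44 (0.714 to 0.762-fold), neither of them called. Compared with 8505C wt, SW1736-PTX stood at -0.34. TJP3, its shorter relative found mainly in epithelia, was listed at 0 in SW1736 wt and 8505C wt and was at 0.899 FPKM in SW1736-PTX and 0.564 in 8505C-PTX. The reads behind these last values were about 51 and 29. Against a floor of 3 reads in the wt library, TJP3 was at least 14.3-fold higher in SW1736-PTX than in SW1736 wt, at least 7.99-fold higher in 8505C-PTX than in 8505C wt, and at least 12.7-fold higher in SW1736-PTX than in 8505C wt.

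The 2 quantities in the tables gave different sizes for TJP3. Its FPKM was 3.15 times what its read coverage would give at the ratio of FPKM to coverage held by most genes of the library, and on coverage brought to the FPKM scale by that ratio (depth-scaled coverage) the log2 ratios (with 0.1 added) were 1.95 in the SW1736 pair and 1.48 in the 8505C pair, the latter under the limit of 1.5. TJP3 (chromosome 19, 3708337 to 3750813, plus strand, 21 exons) overlaps 42 exonic bases of APBA3, an adaptor protein gene on the opposite strand, which was at 8.06, 10.1, 3.70 and 7.03 FPKM over the 4 libraries. APBA3 was thus read in the wt libraries in which TJP3 was at 0. The part of this overlap, and of the larger number of genes listed at 0 in the wt libraries, in the TJP3 values was not tested.

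**Figure D3:**
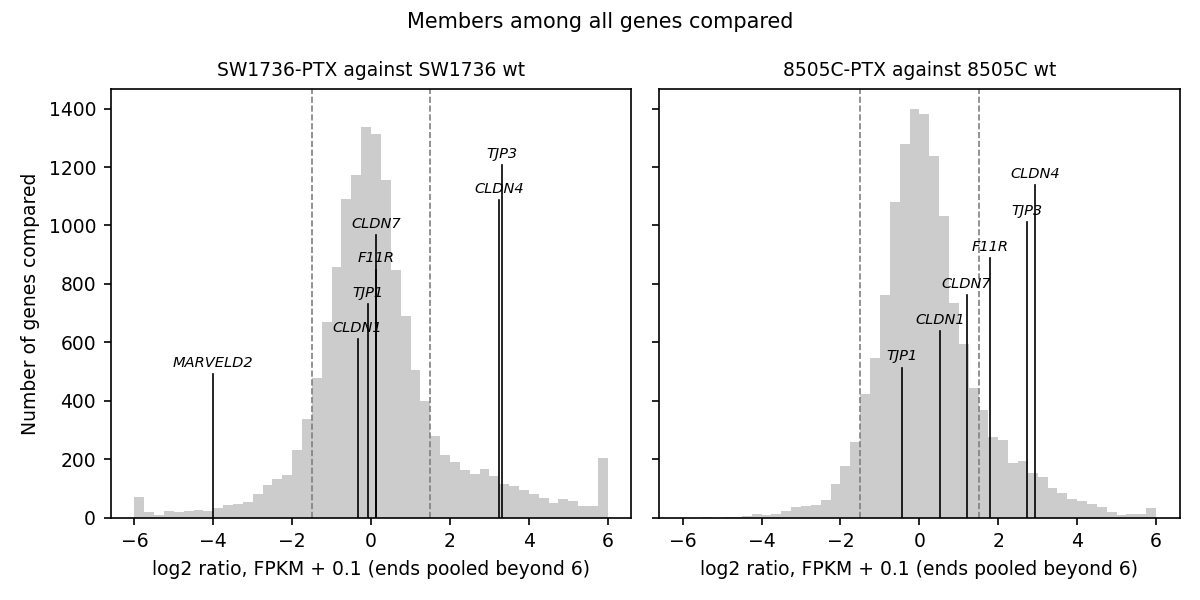
Number of genes by log2 ratio of FPKM + 0.1 in the SW1736 pair (left, 14202 genes) and the 8505C pair (right, 13794 genes), in grey, with the compared tight junction genes marked by black lines whose heights carry no value. Dashed lines mark 1.5 in either direction. In SW1736 CLDN4 and TJP3 lie in the right tail, MARVELD2 in the left tail and the other 4 near the centre, while in 8505C all but TJP1 lie right of 0.

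The promoters of the genes that differed most are shown because the transcription factors SNAI1, SNAI2, ZEB1 and ZEB2 are known to bind E-boxes in promoters of epithelial genes. Windows from RefSeq (GRCh38.p14) run from 250 bases before to 50 after an annotated start, and 8 of the 9 members had at least 1, with 14 windows in all. Capitals mark the E-box CAGGTG or its reverse complement CACCTG, and the GC box GGGCGG or CCGCCC, which binds SP1-type factors. The windows are CLDN4 at chr7:73830746-73831045 (plus strand), MARVELD2 at chr5:69414866-69415165 (plus strand), TJP3 at chr19:3708134-3708433 and chr19:3721487-3721786 (plus strand) and, for contrast, the CLDN7 window with the most E-boxes, at chr17:7262429-7262728 (minus strand). Each is written 5′ to 3′ on the strand of the gene.
CLDN4: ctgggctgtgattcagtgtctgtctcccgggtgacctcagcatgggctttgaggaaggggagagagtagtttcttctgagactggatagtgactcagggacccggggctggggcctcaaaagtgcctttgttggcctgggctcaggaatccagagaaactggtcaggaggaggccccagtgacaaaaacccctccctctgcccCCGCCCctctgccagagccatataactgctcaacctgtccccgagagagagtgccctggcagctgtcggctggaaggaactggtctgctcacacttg
MARVELD2: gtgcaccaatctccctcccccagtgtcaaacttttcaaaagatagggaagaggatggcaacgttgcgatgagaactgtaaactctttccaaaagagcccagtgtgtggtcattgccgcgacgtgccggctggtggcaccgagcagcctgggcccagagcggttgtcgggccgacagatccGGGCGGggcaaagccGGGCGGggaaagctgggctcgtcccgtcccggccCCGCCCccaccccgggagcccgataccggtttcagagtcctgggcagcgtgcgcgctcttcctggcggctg
TJP3, start 1: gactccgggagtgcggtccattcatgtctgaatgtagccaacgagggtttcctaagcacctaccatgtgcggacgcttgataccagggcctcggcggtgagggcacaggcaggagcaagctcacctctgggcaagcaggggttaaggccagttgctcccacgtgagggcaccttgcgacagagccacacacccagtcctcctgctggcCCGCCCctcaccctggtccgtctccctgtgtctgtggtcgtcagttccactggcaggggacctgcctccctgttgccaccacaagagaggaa
TJP3, start 2: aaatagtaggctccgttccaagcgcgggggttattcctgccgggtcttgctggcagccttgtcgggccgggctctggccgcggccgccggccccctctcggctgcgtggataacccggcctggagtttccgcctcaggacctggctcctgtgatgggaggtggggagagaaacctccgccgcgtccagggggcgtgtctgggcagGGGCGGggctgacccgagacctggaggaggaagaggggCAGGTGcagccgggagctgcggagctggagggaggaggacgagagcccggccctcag
CLDN7, start 2: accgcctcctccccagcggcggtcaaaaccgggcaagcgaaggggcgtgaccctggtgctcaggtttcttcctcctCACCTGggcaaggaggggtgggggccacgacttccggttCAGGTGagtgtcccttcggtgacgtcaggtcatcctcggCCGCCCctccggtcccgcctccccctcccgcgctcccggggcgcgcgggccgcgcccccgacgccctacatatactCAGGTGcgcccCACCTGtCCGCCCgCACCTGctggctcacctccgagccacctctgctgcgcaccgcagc

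No E-box of these letters was found in the CLDN4, MARVELD2 or CLDN1 window, nor in the first of the TJP3 windows. The second TJP3 window held 1, beginning 7 bases before the start, and the CLDN7 window held 5. CLDN3 had 1 and OCLN had 1 and 2 in its windows. Over all 35116 RefSeq windows of the same length, 20.6% held an E-box and 45.0% a GC box. A GC box was present in the CLDN4 window (1, beginning 47 bases before the start), in the MARVELD2 window (3) and in both TJP3 windows (1 each), so that the genes higher and the gene lower in the resistant libraries both held it. The palindrome AACCGGTT, bound by grainyhead-like factors of epithelia, was in 0 of the 14 windows and in 0.134% of all windows. A match describes letters only, and none of these windows was measured for binding.

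**Figure D4:**
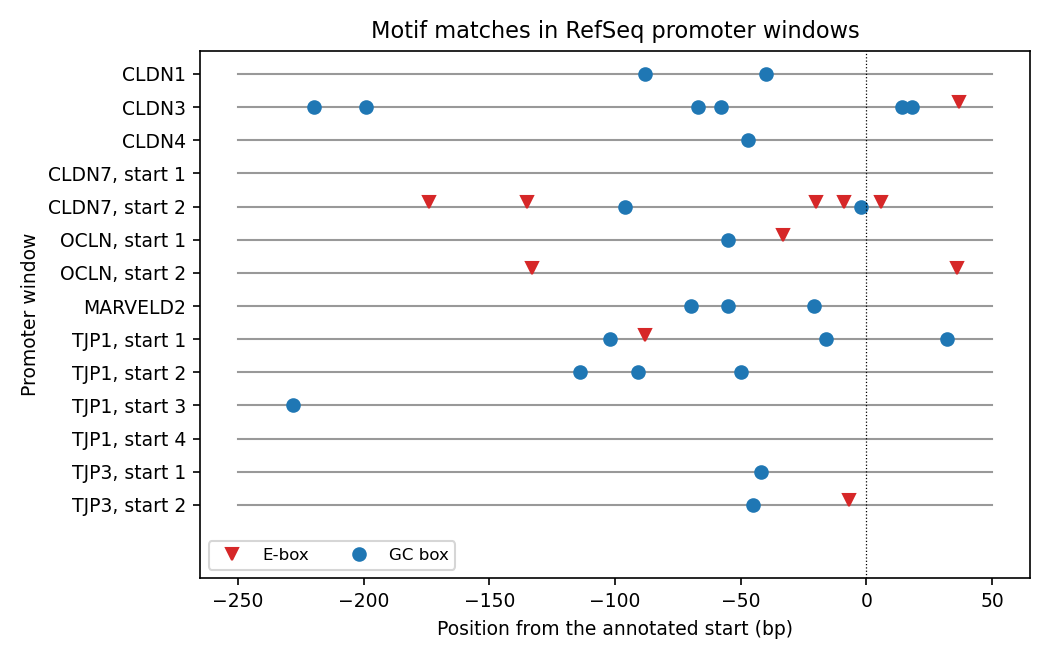
Positions, in bases from the annotated start (dotted line), of E-boxes (red triangles) and GC boxes (blue circles) in 14 RefSeq promoter windows of 8 tight junction genes. CLDN4, CLDN1 and MARVELD2 have GC boxes and no E-box, and the second CLDN7 window has 5 E-boxes.

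The factors themselves did not move one way in the SW1736 pair. In the 8505C pair all 5 listed repressors had log2 ratios above 0, with ZEB1 at 0.002. ZEB1, a repressor of epithelial genes, was at 9.16, 10.9, 10.1 and 10.1 FPKM over the 4 libraries. Of 5 such repressors, 2 were called up and 1 down in the SW1736 pair (median log2 ratio 0.24) and 1 up and 0 down in the 8505C pair (median 1.16). SNAI2 had 4.72, 1.05, 0.202 and 1.27 FPKM (log2 ratios -2.07 in SW1736 and 2.18 in 8505C). ZEB2 had 0.386, 5.54, 7.30 and 9.27 FPKM (3.54 in SW1736). TWIST1, a mesoderm factor, had 0, 8.06, 6.37 and 14.4 FPKM (1.16 in 8505C), and SNAI1 had 8.44, 6.50, 2.98 and 6.94 (1.19 in 8505C). ZEB2 and TWIST1, both near 0 in SW1736 wt, were well read in the other 3 libraries. Against 8505C wt, SW1736-PTX had SNAI2 called up (1.93) and the other 4 repressors not called, with ZEB2 at -0.39 and TWIST1 at 0.33.

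Positive regulators of epithelial genes were largely silent. Of 14 listed, 4 were compared in the SW1736 pair (2 up, 1 down, median 0.93) and 3 in the 8505C pair (0 up, 0 down, median -0.06). GRHL2, a grainyhead-like factor of epithelia, was at 0, 0.0174, 0.0117 and 0 FPKM over the 4 libraries. OVOL1, a repressor of mesenchymal genes, and ESRP1, an epithelial splicing factor, were at 0 in all libraries, while ELF3, an epithelial ETS factor, was at 0.0216, 0.288, 0 and 0.138. KLF4, a zinc finger factor of barrier epithelia, had 2.36 FPKM in SW1736 wt against 13.4 in its resistant library (log2 ratio 2.46), and KLF5, its relative, at 6.79 and 25.1 (1.87). ESRP2 went the other way, from 1.23 FPKM in SW1736 wt to 0.122 in SW1736-PTX (-2.58). In the 8505C pair the log2 ratios of KLF4, KLF5 and GRHL1 were 0.55, -0.06 and -0.86. Against 8505C wt, 3 were compared in SW1736-PTX, with KLF4 called up (1.78), KLF5 at -0.49 and GRHL1 at -0.14.

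Lists of cell type markers were read in the same libraries. The 5 epithelial markers summed to 854, 2411, 951 and 2214 FPKM, of which KRT8 (331, 973, 440 and 974 FPKM) and KRT18 (257, 1437, 511 and 1240), the keratins of simple epithelia, made up most. In the SW1736 pair 3 were compared, with these 2 called up and KRT19 (266 and 0.535 FPKM, log2 ratio -8.71) called down, and in the 8505C pair 2 were compared and 0 called, with KRT8 at 1.15 and KRT18 at 1.28. With 8505C wt as the control, SW1736-PTX had KRT19 called up of 3 compared. From 2 to 3 of the 5 were above 0.5 FPKM in a library. The defining adhesion genes were near 0, with CDH1 (E-cadherin) at 0.0277, 0.0239, 0.0108 and 0 and EPCAM at 0, 0, 0.0806 and 0.0720. The 8 mesenchymal markers summed to 4877, 1914, 1571 and 1671 FPKM, with 6, 8, 7 and 8 above 0.5. Endothelial and leukocyte markers (6 genes) summed to 0.932, 1.13, 56.5 and 9.33, mostly CDH5 (VE-cadherin) in 8505C wt, at 55.9, and CDH5 (4.53) with CD14, a monocyte marker (4.50), in 8505C-PTX. In the 8505C pair CDH5 was called down and CD14 up (0.576 to 4.50 FPKM, 2.77). Of 7 thyroid markers, 1 to 2 exceeded 0.5 in a library, with TSHR and SLC5A5 at 0 throughout. The part of these markers in the tight junction values was not tested.

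Around the members, 53 other tight junction genes were in the tables. In the SW1736 pair 30 were compared, 6 called up and 4 down (median log2 ratio 0.18, against 0.01 over all genes). Of all genes compared there, 15.7% were called up and 10.2% down. In the 8505C pair 28 were compared, 5 up and 1 down (median 0.19 against 0.11), where the shares over all genes were 15.0% and 5.89%. Set against 8505C wt, SW1736-PTX had 30 compared, 9 called up and 1 down (median 0.19 against 0.10), where the shares were 15.1% and 5.23%. LSR, the angulin that recruits tricellulin to 3-cell contacts, and PRKCZ, an atypical protein kinase C of the polarity complex, were called up in both lines. LSR had 4.60, 19.5, 0.190 and 14.3 FPKM (log2 ratios 2.06 in SW1736 and 5.64 in 8505C). It was thus high in the 2 libraries in which MARVELD2 was at 0. PRKCZ had 0, 10.1, 2.63 and 11.7 FPKM (6.67 and 2.12), but on depth-scaled coverage its log2 ratios were 2.22 and 1.43, the latter under the limit. Compared with 8505C wt, SW1736-PTX stood at 6.08 for LSR and at 1.90 for PRKCZ (1.25 on depth-scaled coverage).

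Among the 18 other claudins, 2 were compared in the SW1736 pair and both were called down. CLDN11, known from myelin and Sertoli cells, went from 6.45 FPKM in the wt library to 0.0247 in the resistant one (-5.72), and CLDN15, a pore-forming claudin of the gut, was at 5.57 and 0.809 (-2.64). Neither was called in SW1736-PTX against 8505C wt, where CLDN15 stood at -0.60 and CLDN11 was too low to be compared. For 8505C only CLDN15 was compared, at 1.28 and 1.50 FPKM, and it was not called. CLDN4 was thus the one claudin called up in either line, with CLDN7 and CLDN12 under the limit.

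Of 10 other membrane proteins, 3 were compared in each pair, with 2 called up in SW1736 and 1 in 8505C and 0 down in either. Beside LSR, JAM3, an adhesion molecule related to F11R, had 0.696, 21.9, 2.65 and 3.21 FPKM (4.79 in SW1736 and 0.27 in 8505C). ESAM, an endothelial relative, was at 0.164 and 0.543 in the SW1736 pair (1.29). CXADR, a coxsackievirus receptor of junctions, was at 3.45 and 1.94 in the 8505C pair (-0.80). Against 8505C wt, SW1736-PTX had 4 compared, with LSR, JAM3 (3.00) and ESAM (1.96) called up and CXADR, listed at 0 in SW1736-PTX, called down.

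All 25 other scaffold and polarity genes were compared in the SW1736 pair, with 4 called up and 2 down (median 0.10), and 24 in the 8505C pair, with 4 up and 1 down (median 0.16). Apart from PRKCZ, CGNL1 (paracingulin) had 0.330 FPKM in SW1736 wt against 7.79 in its resistant library (log2 ratio 4.20) and PARD3B, a polarity protein, at 0.577 and 4.66 (2.81). MPDZ, a scaffold with many PDZ domains, was also called up, at 1.36 and 5.11 (1.83). PATJ, listed under its older name INADL, and AMOT, an actin-binding angiomotin, were the pair called down in SW1736, at 0.801 and 0.145 FPKM (-1.88) and at 6.34 and 1.81 (-1.75). With 8505C wt as the control, SW1736-PTX had 6 of the 25 called up and 0 down. CGNL1 (3.08) and PARD3B (2.14) were again called up, while MPDZ (-0.41), PATJ (-1.38) and AMOT (0.90) were not called.

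In the 8505C pair PARD6B and PARD6G, polarity partners of PRKCZ, were among those called up. Their relatives PARD6A (-0.30), PARD3 (0.17) and PARD3B (1.27) were not called. PARD6B was at 0.529 and 3.02 FPKM (2.31) and PARD6G at 0.809 and 3.54 (2.00), and MAGI1, a junctional scaffold, at 1.05 and 5.10 (2.18). CGN (cingulin), a scaffold that binds TJP1, was at 0.676, 0.832, 1.10 and 0.997 FPKM over the 4 libraries.

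**Figure D5:**
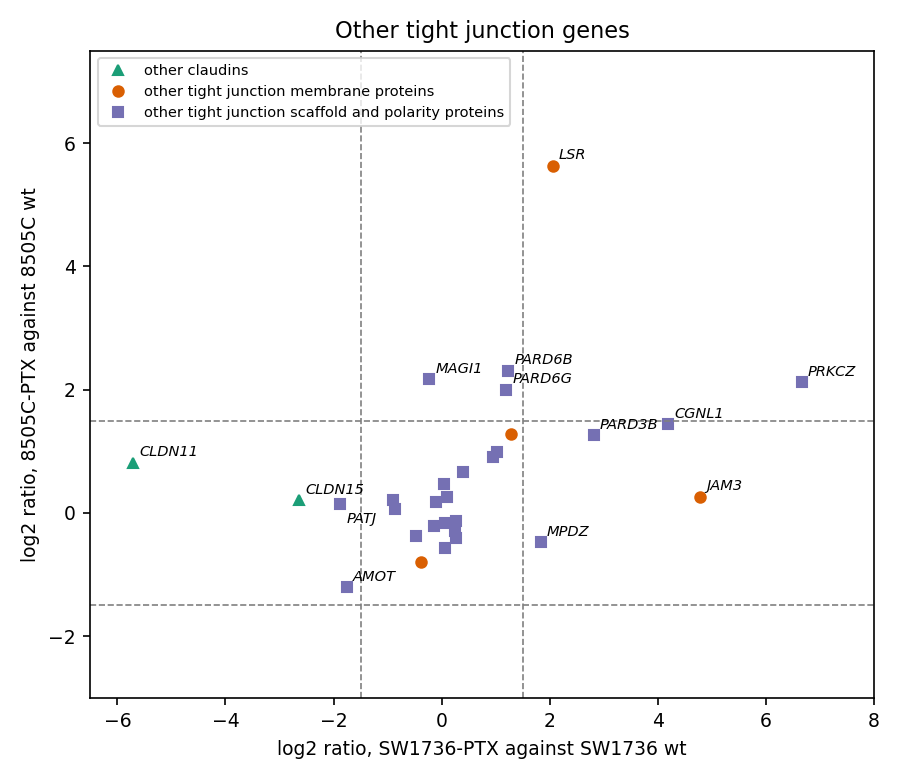
Log2 ratio of FPKM + 0.1 in the SW1736 pair (horizontal) and the 8505C pair (vertical) for the other tight junction genes reported here that were compared in at least 1 pair, by class (triangles claudins, circles membrane proteins, squares scaffold and polarity proteins). Dashed lines mark 1.5 in either direction, and names are given beyond them. LSR and PRKCZ are beyond the upper limit on both axes, while CLDN11, CLDN15, PATJ and AMOT are beyond the lower limit on the SW1736 axis and within the limits on the 8505C axis, where AMOT is at -1.20.

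The lines were also compared within each state. Between 8505C-PTX and SW1736-PTX, where 3.70% of 13986 genes were called up and 4.09% down, 6 members were compared and 0 were called, with a median log2 ratio of 0.24 against -0.01 over all genes. CLDN7 came nearest to the limit (1.30). Between 8505C wt and SW1736 wt, where 7.73% of genes were called up, 5 members were compared, 0 were called up and MARVELD2 was called down, with a median of -0.34 against -0.08.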

How the data were processed

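RNA was isolated with RNeasy columns and libraries were made with the Universal Plus mRNA-Seq kit. Per the study's methods, single-end 75 bp reads were trimmed (Cutadapt, ERNE), aligned to hg38 with STAR and quantified with StringTie. Versions of ERNE, STAR and StringTie and the annotation are not given in the sources used here. The submitters' processing notes name bcl2fastq 2.20. The deposited tables give, per gene, FPKM, TPM and Coverage computed by the authors. FPKM was used throughout, deposited TPM as an alternative, and the deposited Coverage signal for depth.

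Entries of the same gene name were summed. Ratios were log2((FPKM + 0.1)/(FPKM + 0.1)). Genes above 0.5 FPKM in at least 1 library of a pair were compared, and those with a log2 ratio beyond 1.5 in either direction were called. These limits were chosen from the study's methods. With 1 library per condition no test was made. Reads per gene were estimated as Coverage times transcript length (MANE, GENCODE release 44) over 75 bp, and exact 95% intervals (Poisson for levels, Clopper-Pearson for ratios) cover counting error only, as does the floor of 3 reads. Depth-scaled Coverage is Coverage times the ratio of FPKM to Coverage most frequent in the library. Python 3.11.15, NumPy 2.4.6, pandas 2.3.3, SciPy 1.17.1 and matplotlib 3.10.9 were used.

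The members and gene lists were chosen with earlier results of these data known. Named were all members; of each list, genes called the same way in both lines and the 3 with the largest absolute log2 ratios in each pair among those compared; set regulators; CLDN12; the 5 profiles nearest to the member of widest range; and the nearest read genes on each side of a member. MPDZ, PATJ, AMOT, PARD3, PARD6A, PARD6G, CGN, PKP3 and single markers were named after their values were seen. SLC25A6 and CD99 were named from the paper. INADL, MPP5, PVRL1, PVRL2 and MLLT4 were matched to PATJ, PALS1, NECTIN1, NECTIN2 and AFDN through RefSeq synonyms. Alternatives were other pseudocounts (0.01, 1), limits (1, 2), filters, median centring, TPM, the highest entry per name, 8505C wt as control of SW1736-PTX and, chosen after seeing the data, depth-scaled Coverage. Values of some genes of these lists are not reported here.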

Additional observations from a re-analysis of the deposited data

Results flagged for a closer look

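Opposite signs in the 2 lines were looked for among genes called in both lines and among members whose counting intervals excluded no change in both, which gave 3 genes. Other genes had opposite signs without meeting either condition. CLDN1 had log2 ratios of -0.34 in the SW1736 pair and 0.53 in the 8505C pair, neither of them called. SNAI2, a repressor of epithelial genes, had -2.07 and 2.18. FN1 (fibronectin), a mesenchymal marker, had -3.45 and 1.56, from 1133 and 103 FPKM in SW1736 wt and SW1736-PTX and 91.7 and 270 in 8505C wt and 8505C-PTX. Against 8505C wt, SW1736-PTX stood at -0.01 for CLDN1, 1.93 for SNAI2 and 0.17 for FN1. The difference between the lines was not tested, since each condition was 1 library.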

How the results depend on the processing

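The wt and PTX libraries of a line were set against each other as a pair, but no paired test was run. A model of resistance with the line as a block, which would leave 1 residual degree of freedom, was not run. With 1 library per condition, none could be left out. Counts of members and of other tight junction genes called gave 99 values under the alternatives within 1.5 times the reported count. Another 25 were not, and a 0 that stayed 0 was counted among the 99. Among members in the SW1736 pair, the 2 called up became 1 with 1 FPKM added in place of 0.1, 0 where both libraries had to exceed 0.5 FPKM and 1 on depth-scaled coverage, and the 1 called down became 0 with 1 FPKM added, 0 under the filter on both libraries and 0 against 8505C wt. In the 8505C pair, the 3 called up became 1 with 1 FPKM added and 1 under the filter on both libraries, and the 0 called down became 1 without a filter and 1 on TPM. In the wt libraries the 1 called down became 0 with 1 FPKM added and 0 under that filter, and in the PTX libraries the 0 called up became 1 at a limit of 1. Among other tight junction genes in the SW1736 pair, the 6 called up became 10 at a limit of 1, and the 4 called down became 2 with 1 FPKM added, 2 under the filter on both libraries, 2 at a limit of 2 and 1 against 8505C wt. In the 8505C pair, the 5 called up became 3 with 1 FPKM added, and the 1 called down became 0 with 1 FPKM added, 2 without a filter, 2 on TPM, 2 at a limit of 1, 0 at a limit of 2 and 0 on depth-scaled coverage. For single genes and medians 258 values stayed close and 51 moved. Other filters and limits leave the log2 ratio of a single gene as it is, so many of the 258 could not have moved. CLDN3, at 2 to 8 estimated reads, could not be compared at this depth.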

Other observations

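Other cell contacts were read alongside the tight junction genes. Of 15 adherens junction and desmosome genes in the tables, 13 were compared in each line. In the SW1736 pair 3 were called up and 1 down (median log2 ratio 0.52), and in the 8505C pair 2 up and 0 down (median 0.25). Over all genes compared, 15.7% were called up and 10.2% down in the SW1736 pair, and 15.0% up and 5.89% down in the 8505C pair. JUP (plakoglobin), shared by both kinds of contact, was called up in both lines, at 9.56 and 224 FPKM in SW1736 wt and SW1736-PTX (4.53) and 27.8 and 288 in 8505C wt and 8505C-PTX (3.37). DSC2, a desmosomal cadherin, was at 0 and 1.17 FPKM and PKP3, a desmosomal plaque protein, at 5.66 and 21.0 (1.87) in the SW1736 pair. CDH3 (P-cadherin) was at 2.36 and 0.0531 there (-4.00). PKP1, another plaque protein, was at 0.963 and 3.29 in the 8505C pair (1.67). Against 8505C wt, SW1736-PTX had 13 compared, with JUP called up (3.00) and PKP1 (-2.73) and PKP2 (-1.54) down.

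Within 1 Mb of CLDN4, 27 genes were compared in each pair. In SW1736, 4 were called up and 0 down (median log2 ratio 0.21), where 15.7% of all genes compared were called up and 10.2% down. In 8505C, 8 were called up and 0 down (median 0.66), where 15.0% of all genes compared were called up and 5.89% down. WBSCR27, the nearest read gene on one side, was at 0.702, 31.0, 6.37 and 28.4 FPKM over the 4 libraries (5.28 and 2.14), and ABHD11, on the other, had log2 ratios of 0.00 and 0.07. Around MARVELD2, 19 genes were compared, with 0 called up and 0 down in SW1736 (median -0.38) and 0 up and 1 down in 8505C (median -0.34). RAD17, its nearest read neighbour on one side, stood at 0.70 and 0.33, and GTF2H2B, on the other, at -0.55 and -0.95.

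MARVELD2 had the widest range of the members (4.01 on the log2 scale), and the genes whose centred profiles over the 4 libraries lay nearest to it were DISC1FP1, ZNF485, SPOCD1, MAP3K7CL and HAS2, at Euclidean distances of 0.0936, 0.294, 0.297, 0.362 and 0.385. With 4 libraries this likeness is a description only.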
